A study of Mus musculus with 4 samples.

Results

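Cells show samples of their own proteins to CD8+ T cells on major histocompatibility complex (MHC) class I molecules, and the RNA of 10 genes of that machinery was read here in leukocytes from mouse tumors. The genes were listed by symbol, and the list was chosen with earlier results of these data known. Of the 10 genes, 10 were found among the 32285 genes of the count matrix. They encode the heavy chains H2-K1 and H2-D1, the light chain B2m, the peptide transporter subunits Tap1 and Tap2, the loading factor Tapbp, the immunoproteasome subunits Psmb8, Psmb9 and Psmb10, and the transcriptional activator Nlrc5.

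The tumors grew under the skin of C57BL/6 mice from the KPC line of pancreatic cancer cells, and the genotype of that model is labelled KRASLSL.G12D/+P53LSL.R172H/+Pdx-Cre, which places the oncogenic alleles under a Cre driven by the pancreatic Pdx promoter. The 4 groups carried the same tumors and received no agonist (untreated), a STING agonist, an LTβR agonist, or both agonists. The STING agonist, ADU-S100, is a cyclic dinucleotide injected into the tumor that triggers the interferon-inducing sensor STING. The LTβR agonist is the antibody 4H8, which activates the lymphotoxin-β receptor. The study ran more than 1 single-cell experiment and in each pooled the tumors of a group before live CD45+ leukocytes were sorted. The data used here hold 1 library per group, so no test between groups was possible. The labels give no age, sex, dose or time. Intervals are 95% intervals of counting error only, and the spread between mice or pools is unknown.

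Proteins are cut to peptides by the proteasome, and immune cells swap its constitutive catalytic subunits for Psmb8, Psmb9 and Psmb10. The transporter made of Tap1 and Tap2 moves the peptides into the endoplasmic reticulum, where Tapbp holds the empty heavy chain and B2m beside it until a peptide binds. Interferon-γ is the classical inducer of the whole set, and Nlrc5 is the class I transactivator that acts at the promoters of these genes. Dendritic cells use the pathway to prime CD8+ T cells, and NK cells read the heavy chains through inhibitory receptors.

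Of the 10 genes, 7 lie together in the MHC region of chromosome 17 in the mouse build GRCm38, from Tapbp (chr17:33915899-33929292) and H2-K1 (chr17:33996017-34000347) to H2-D1 (chr17:35262730-35267499). Psmb9, Tap1, Psmb8 and Tap2 follow each other within 34335 bases, starting with Psmb9 at chr17:34181987-34187764 and ending with Tap2 at chr17:34203527-34216321. Psmb10 (chr8:105935735-105938444) and Nlrc5 (chr8:94434356-94527272) are on chromosome 8, and B2m (chr2:122147686-122153083) is on chromosome 2. The 5′ ends of Psmb9 and Tap1 overlap by 212 bases on opposite strands. Whether the counting used strand is not given in the sources used here, so reads in that overlap could fall to either gene.

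Promoter windows from RefSeq (GRCm38.p6, 250 bases before to 50 after the start) existed for 8 of the 10 genes, the exceptions being Tap2 and Nlrc5. The stretches below are shown because the agonists act through interferon and NF-κB signaling, and because the 2 heavy chains differ in their order over cell classes although their promoters are alike. Each is written 5′ to 3′ on the strand of its gene, and capitals mark matches, on either strand, to GGATTCC (the core of the class I κB site), TTTCACT (a core of the class I interferon element), GAAA spaced by any 2 bases from GAAA (a core of interferon-stimulated elements), TGACG (part of the X2 box) and CCAAT (the Y box).
H2-K1, chr17:34000348-34000547, minus strand, 200 bases before the start: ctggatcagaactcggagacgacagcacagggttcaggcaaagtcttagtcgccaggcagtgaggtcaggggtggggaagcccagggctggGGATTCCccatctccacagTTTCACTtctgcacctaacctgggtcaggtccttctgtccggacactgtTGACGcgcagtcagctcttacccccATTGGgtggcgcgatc
H2-D1, chr17:35262894-35263093, plus strand, 200 bases before the RefSeq start and inside the longer gene span given above: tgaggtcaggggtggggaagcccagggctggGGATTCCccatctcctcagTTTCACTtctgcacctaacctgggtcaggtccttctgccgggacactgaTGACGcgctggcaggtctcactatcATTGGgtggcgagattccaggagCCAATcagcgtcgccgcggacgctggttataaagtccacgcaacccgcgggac
B2m, chr2:122147487-122147686, plus strand, 200 bases before the start: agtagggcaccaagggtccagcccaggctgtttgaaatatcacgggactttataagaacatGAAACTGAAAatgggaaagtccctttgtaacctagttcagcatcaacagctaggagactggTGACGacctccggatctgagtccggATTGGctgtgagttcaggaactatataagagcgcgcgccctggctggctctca
Psmb9 and Tap1, chr17:34187331-34187555, plus strand, 225 bases between the 2 RefSeq starts, which the longer gene span of Psmb9 given above covers: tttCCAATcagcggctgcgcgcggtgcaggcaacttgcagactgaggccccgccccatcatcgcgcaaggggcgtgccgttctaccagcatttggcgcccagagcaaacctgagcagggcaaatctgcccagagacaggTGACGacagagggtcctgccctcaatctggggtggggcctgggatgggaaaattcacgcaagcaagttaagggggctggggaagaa

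Of the 8 genes with a window, the κB core was found in H2-K1 and H2-D1, against 1245 of 32851 windows in all (3.79%). The class I interferon core was in the same pair of genes and Psmb8, against 4.32% of all windows. The spaced GAAA pair was found for B2m alone of the 8 and in 3.44% of all windows. The shorter motifs were common. TGACG was found for 5 of the 8 genes (H2-K1, H2-D1, B2m, Tap1 and Psmb9) against 20.8% of all windows, and CCAAT for those 5 and Tapbp against 37.4%. The 8 genes had 9 windows, and a gene was counted when any of its windows matched, whereas the shares of all are counted per window. Over 140 aligned positions the H2-K1 and H2-D1 stretches shared 128 bases (91.4%). A match describes letters in the window and was not tested as a binding site.

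The matrix held 3955 to 7824 barcodes per library, of which 23011 of 24839 (92.6%) passed the quality limits of the study, with library medians of 5750 to 7094 unique molecular identifiers (UMIs, single captured RNA molecules) per cell. Between 94 and 134 kept cells of a library carried a barcode sequence that a kept cell of another library also carried. A cell was put in a class when at least 3 marker genes of the class were detected and at least 1 more than of any other class, which placed 20309 cells (88.3%). The markers of a class were higher there than in the remaining cells for all classes, except that Cd209f was at 0 among the 8 markers of plasmacytoid DC-like cells. The gate used these same markers, so this is not an independent check of the classes. Markers of tumor cells, fibroblasts and endothelium summed to 74.1 to 80.8 CPM (UMIs per 1000000 UMIs) in a library, with Pecam1, which leukocytes also make, at 61.1 to 66.0 CPM of it, Epcam at 3.91 to 7.38 CPM and Msln at 0 in 2 libraries. The leukocyte gene Ptprc stood at 1053 to 1140 CPM. Class names carry "-like" because they rest on RNA alone.

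The level of a gene in a class is its share of all UMIs of that class in 1 library, in CPM. Values in 4 libraries are given in the order untreated, STING agonist, LTβR agonist and both agonists (library order). T-like, NK-like, macrophage- or monocyte-like, neutrophil-like, Cd209a dendritic cell-like (Cd209a DC-like) and mature DC-like cells had at least 50 cells in every library. The order of classes is read over these 6 and leaves out the smaller classes. Levels are compared between classes within a gene, not between genes. H2-K1, H2-D1 and the other class I heavy chains are near-identical in parts of their sequence, so the counting could lose or misplace some of their reads.

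Mature DC-like cells carry Ccr7 and Fscn1 and are known to leave tissue for lymph nodes. Of the 6 classes, they had the highest mean level over the 4 libraries for 7 of the 10 genes. They had the second highest for the other 3. NK-like cells were last for 4 genes and neutrophil-like cells for 3. Together the 10 genes took 1.353%, 1.4998%, 1.2008% and 1.2682% of the UMIs of mature DC-like cells in library order, against 1.02%, 1.10%, 0.928% and 0.947% over all filtered cells. This share was not the largest of all subsets. T-like cells with Cd4 and Foxp3 had 1.3217%, 1.5104%, 1.4122% and 1.3289%, the second of these from 48 cells.

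**Figure D1:**
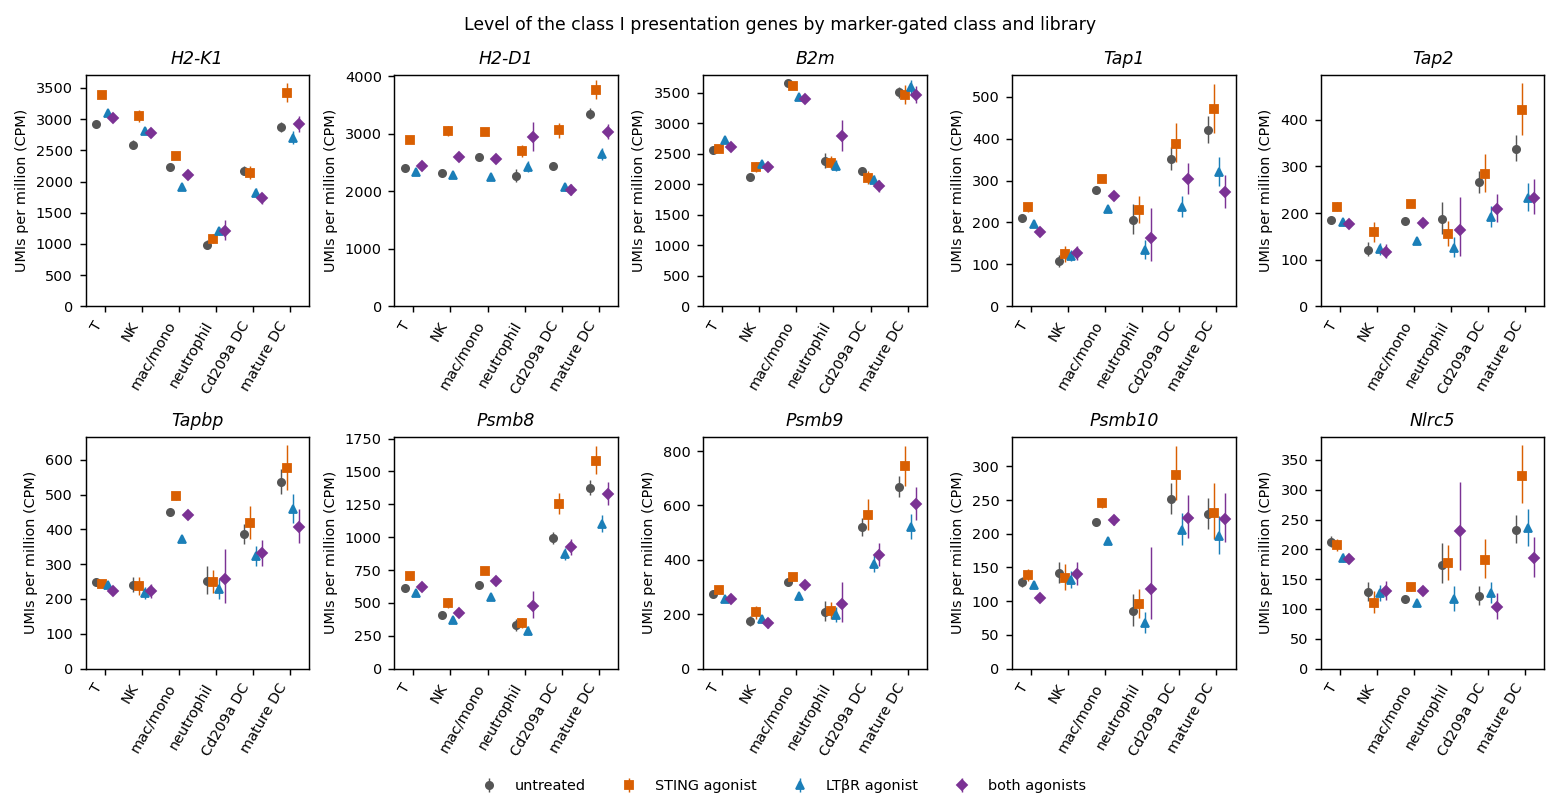
Level of each gene (vertical axis, CPM from 0) in 6 classes (horizontal axis), with 1 symbol per library and bars for exact Poisson 95% intervals. Mature DC-like cells are highest for Psmb8 at 1103 to 1584 CPM, and neutrophil-like cells lowest for H2-K1 at 989 to 1212 CPM.

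The heavy chain H2-K1 was at 2927, 3391, 3096 and 3014 CPM in T-like cells in library order. Mature DC-like cells had 2871, 3422, 2703 and 2924 CPM, and NK-like cells 2591, 3046, 2813 and 2781 CPM. These 3 classes overlapped in their ranges and stood above macrophage- or monocyte-like cells in every library. Neutrophil-like cells, with 989, 1079, 1200 and 1212 CPM, were below every other class of the 6 without overlap, and the highest class mean was 2.77 times the lowest. Within T-like cells, those with Cd4 and Foxp3, the regulator of suppressive T cells, had 4271, 4992, 4809 and 4478 CPM, the second of these from 48 cells. Cd4 cells without Foxp3 had 3360, 3530, 3317 and 2932 CPM, so the 2 subsets did not overlap.

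The second heavy chain, H2-D1, was the gene with the least difference between classes. Mature DC-like cells had 3352, 3764, 2651 and 3038 CPM, and Cd209a DC-like cells, the lowest by mean, 2433, 3060, 2074 and 2025 CPM. Each class overlapped its neighbor in the order, and the highest class mean was 1.34 times the lowest. Neutrophil-like cells were in the middle with 2270, 2697, 2425 and 2941 CPM, in contrast to their place for H2-K1. On the log2 scale the SD between class means was 0.14 for H2-D1, below the mean SD between libraries within a class of 0.19.

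The light chain B2m was at 3660, 3613, 3435 and 3400 CPM in macrophage- or monocyte-like cells and at 3506, 3465, 3586 and 3465 CPM in mature DC-like cells. Both stood above the other classes of the 6 without overlap. Cd209a DC-like cells were last of the 6 with 2222, 2106, 2072 and 1968 CPM. B2m varied least between libraries of the 10 genes, with a mean SD of 0.06 on the log2 scale within a class.

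The transporter subunit Tap1 was at 421, 470, 320 and 272 CPM in mature DC-like cells and at 108, 124, 121 and 126 CPM in NK-like cells. The NK-like values were below the other classes of the 6 without overlap, and the class means spanned 3.09-fold. In B-like cells, which are not among the 6, Tap1 was 1.33 to 1.82-fold lower than in T-like cells in 3 libraries. Tap2 was at 338, 420, 233 and 233 CPM in mature DC-like cells and at 122, 159, 123 and 117 CPM in NK-like cells. Its neighbors in the order all overlapped. Tapbp, the loading factor tapasin, was at 537, 576, 458 and 408 CPM in mature DC-like cells and at 450, 496, 373 and 442 CPM in macrophage- or monocyte-like cells. It was the lowest in NK-like cells, at 241, 237, 216 and 222 CPM, and mature DC-like, macrophage- or monocyte-like and Cd209a DC-like cells stood above the other 3 classes without overlap.

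Of the immunoproteasome subunits, Psmb8 differed most between classes, with 1375, 1584, 1103 and 1331 CPM in mature DC-like cells. Cd209a DC-like cells had 991, 1254, 870 and 924 CPM, above macrophage- or monocyte-like cells (637, 745, 543 and 663 CPM) without overlap. Neutrophil-like cells were last, with 328, 344, 287 and 477 CPM, and class means spanned 3.75-fold. Psmb9 was at 669, 743, 521 and 605 CPM in mature DC-like cells and at 173, 206, 181 and 166 CPM in NK-like cells. Psmb10 followed another order, with Cd209a DC-like cells first at 251, 288, 206 and 224 CPM, overlapping mature DC-like and macrophage- or monocyte-like cells. Those 3 classes stood above NK-like, T-like and neutrophil-like cells without overlap, and neutrophil-like cells were last at 84.8, 95.2, 67.1 and 118 CPM.

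Nlrc5, the class I transactivator, was at 233, 323, 235 and 185 CPM in mature DC-like cells. T-like cells came next with 213, 207, 186 and 184 CPM. Macrophage- or monocyte-like cells were last by mean with 117, 136, 110 and 130 CPM, although they were first for B2m and second for Tapbp. No neighbors in the order of Nlrc5 were free of overlap.

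Classes with fewer cells are given by value only. cDC1-like cells, the dendritic subset best known for cross-presentation, had 89 and 60 cells in the untreated and LTβR agonist libraries, and 30 and 22 in the STING agonist and both-agonist libraries. Their Psmb9 level was 823, 880, 790 and 698 CPM in library order, and their Tap1 level 397, 490, 362 and 287 CPM. This Psmb9 level was above that of mature DC-like cells in every library, and the Tap1 ranges of both classes overlapped. B-like cells, with 53, 14, 146 and 477 cells, had H2-K1 at 1398, 1672, 1564 and 1355 CPM and B2m at 1224, 1286, 1520 and 1342 CPM. These B2m values were below those of Cd209a DC-like cells, last of the 6 classes, in each library. Plasma-like cells (2 to 24 a library) and mast- or basophil-like cells (3 to 9) were too few to describe.

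Pairs of related classes were then set side by side within each library. A gene was counted for a pair when its log2 ratio of CPM + 10 passed a fixed limit of 0.32 in the same direction in every library with at least 50 cells of both classes, and the same count over all genes with enough UMIs gave the background. The pairs were chosen with the levels known, the classes share a library, and no test was made.

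Mature DC-like against Cd209a DC-like cells counted 5 of 10 genes as higher in each of 4 libraries, H2-K1, B2m, Psmb8, Psmb9 and Nlrc5, against a background of 19.9% higher and 27.5% lower. Nlrc5 was 1.72 to 1.84-fold higher and B2m 1.58 to 1.76-fold higher. Psmb10 stood at 0.81 to 0.99-fold. The median log2 ratio of the 10 genes over libraries was 0.42, against -0.14 over all genes tested. Against macrophage- or monocyte-like cells, mature DC-like cells were higher for H2-K1, Tap2, Psmb8, Psmb9 and Nlrc5 (backgrounds 13.3% higher and 21% lower), with Psmb8 at 1.99 to 2.14-fold and Psmb9 at 1.92 to 2.16-fold. B2m did not separate these classes, at 0.96 to 1.04-fold. Cd209a DC-like against macrophage- or monocyte-like cells gave 2 genes higher, Psmb8 and Psmb9 (background 9.59%), and 1 lower, B2m, by 1.64 to 1.72-fold (background 11.4%, a share close to 1 of 10).

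In the 2 libraries with enough cells, cDC1-like against Cd209a DC-like cells counted Psmb9 as higher, at 1.57 to 2.03-fold, and 0 genes as lower (backgrounds 8.28% higher, a share close to 1 of 10, and 14.3% lower). Tap1 at 1.12 to 1.51-fold, Tap2 at 1.11 to 1.27-fold and Psmb8 at 1.15 to 1.21-fold were also above in both libraries without being counted. Plasmacytoid DC-like cells, the specialized makers of type I interferon, were lower than Cd209a DC-like cells for Tap1, Tap2 and Psmb10 (backgrounds 29.2% lower, a share close to 3 of 10, and 21.1% higher). Genes of the macrophage or monocyte marker list, which includes Ly6c2 and Ccr2, summed to 4071 (untreated) and 5062 CPM (LTβR agonist) in plasmacytoid DC-like cells. Their part in this result was not tested.

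Neutrophil-like cells were lower than macrophage- or monocyte-like cells for H2-K1, Tap1, Tapbp, Psmb8, Psmb9 and Psmb10 in each of 4 libraries, with backgrounds of 30.4% lower and 9.98% higher. Psmb10 was 1.80 to 2.59-fold lower and H2-K1 1.59 to 2.24-fold lower. H2-D1 stayed within 0.87 to 1.15-fold. Neutrophil-like cells held 1968 to 2378 UMIs at the median against 8510 to 10764 in macrophage- or monocyte-like cells, and the part of depth was not tested for this pair.

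Among lymphocytes, NK-like cells were lower than T-like cells for Tap1, Tap2, Psmb8, Psmb9 and Nlrc5 (backgrounds 9.3% lower and 6.13% higher). Tap1 was 1.38 to 1.88-fold lower and Psmb8 1.41 to 1.52-fold lower, while H2-D1 stood at 0.97 to 1.07-fold. B-like cells were lower than T-like cells for 9 of 10 genes in 3 libraries, the exception being Psmb10 at 0.89 to 0.95-fold (backgrounds 20.9% lower and 7.77% higher). Tap2 was 1.84 to 2.52-fold lower and H2-K1 1.97 to 2.21-fold lower in B-like cells. Foxp3-positive Cd4 cells exceeded Foxp3-negative Cd4 cells in 3 libraries for H2-K1, H2-D1, B2m, Tap1, Tapbp and Psmb9, with backgrounds of 8.81% higher and 8.55% lower, and Tap1 was 1.52 to 1.66-fold higher. Nlrc5 did not follow, at 0.76 to 0.97-fold. CD8 cells against Foxp3-negative Cd4 cells counted 0 genes either way (backgrounds 4.98% higher and 6.76% lower).

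The share of H2-K1 in the UMIs of H2-K1 and H2-D1 asks whether the 2 heavy chains keep the same balance. In neutrophil-like cells it was 30.3%, 28.6%, 33.1% and 29.2% in library order, with exact binomial intervals from 25.9% to 34.6% over the 4 libraries. T-like cells had 54.9%, 54.0%, 57.0% and 55.3%, and macrophage- or monocyte-like cells 46.2%, 44.3%, 46.1% and 45.1%. The neutrophil-like share was the lowest of the 6 classes in each library. Between libraries the share spanned most in Cd209a DC-like cells, from 41.2% with the STING agonist (39.6 to 42.8) to 47.2% untreated, and mature DC-like cells went from 46.1% untreated to 50.5% with the LTβR agonist.

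The immunoproteasome share sets each inducible subunit against the constitutive subunit it replaces. For Psmb8 against Psmb5, mature DC-like cells had 90.7%, 90.8%, 89.4% and 91.0% and NK-like cells 75.7%, 78.0%, 75.3% and 77.1%. For Psmb9 against Psmb6, macrophage- or monocyte-like cells had 69.9%, 69.7%, 63.0% and 66.3%. The value with the LTβR agonist, 63.0% (62.1 to 63.9), was below the others in that class, and mature DC-like cells were also lowest with that agonist, at 80.8%, 81.3%, 73.4% and 80.0%. NK-like cells did not follow, at 60.8%, 62.2%, 62.8% and 57.3%. For Psmb10 against Psmb7, macrophage- or monocyte-like cells had 74.0%, 75.7%, 70.9% and 74.0%. The shares count RNA, not assembled proteasomes.

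**Figure D2:**
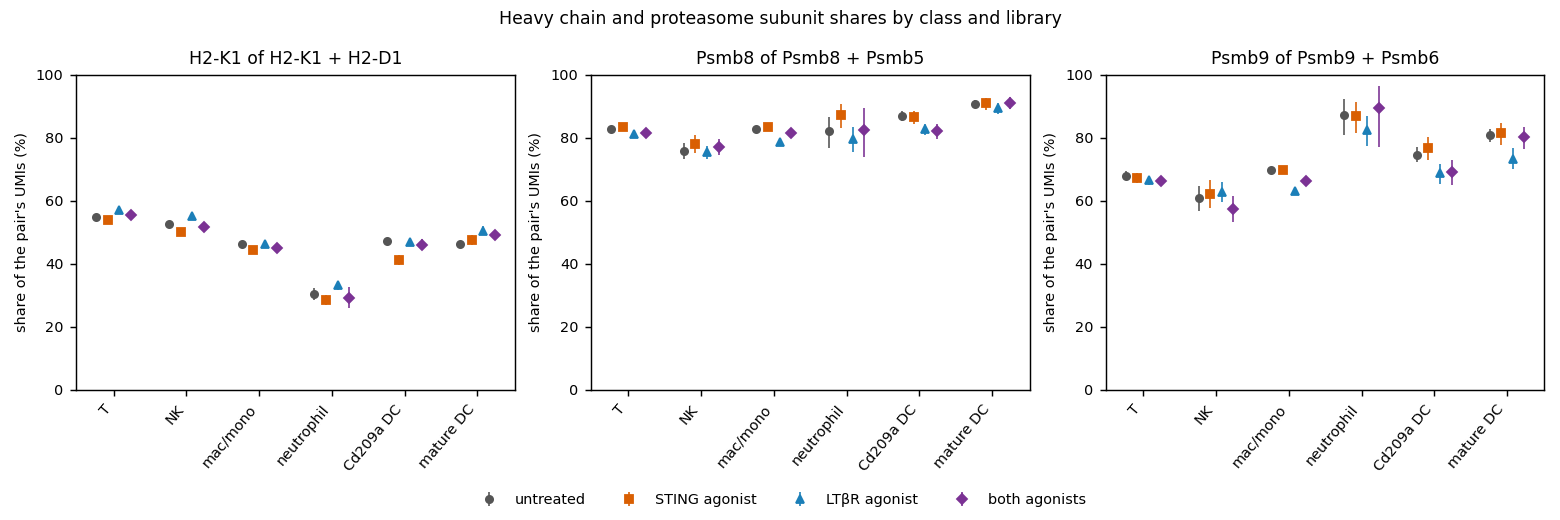
Share of a pair's UMIs (vertical axis, percent from 0 to 100) taken by H2-K1, Psmb8 and Psmb9 in 6 classes, 1 symbol per library, bars for exact binomial 95% intervals. The H2-K1 share in neutrophil-like cells, 28.6% to 33.1%, lies below all other classes.

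The next comparisons asked how the genes differed with each agonist within a class. All 3 comparisons with untreated share the untreated library. Differences are log2 ratios of CPM after adding 10 CPM, a gene was counted when it passed the same limit of 0.32, and the background is the share of all genes with at least 50 UMIs in either library that passed it. Over all filtered cells the 10 genes had a median of 0.13 (STING agonist), -0.24 (LTβR agonist) and -0.17 (both), beside 0.02, 0.01 and 0.03 over all genes.

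The STING agonist library had 9 of 10 genes above untreated in macrophage- or monocyte-like cells, by 0.08 to 0.24, with B2m at -0.02. H2-D1, for example, went from 2596 to 3026 CPM, a difference of 0.22 (0.20 to 0.24), and Tap2 from 184 to 219 CPM, 0.24 (0.18 to 0.30). None passed the limit (backgrounds 1.56% higher and 1.36% lower), and the median of the 10 was 0.15 against -0.00056 over all genes tested. In the same class 10 of 10 genes were lower than untreated with the LTβR agonist, with a median of -0.22 against 0.0059 over all genes. Tap2 fell short of untreated the most, with 141 against 184 CPM and a difference of -0.36 (-0.42 to -0.31), and was the 1 gene past the limit, which it missed after thinning of each cell to 1000 UMIs (-0.24) and with 50 CPM added (-0.29) (backgrounds 2.89% lower and 3.85% higher). Nlrc5 and B2m differed least, both at -0.09. With both agonists the median was -0.04, 3 genes were above and 7 below untreated, and none passed the limit (backgrounds 5.52% higher and 3.73% lower). Psmb8 at 0.06 and Nlrc5 at 0.14 had intervals above 0, Nlrc5 being at -0.03 after thinning, and H2-K1 at -0.08, H2-D1 at -0.02, Tap1 at -0.08 and B2m at -0.11 below 0.

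The same libraries gave the 2 remaining sides of the design. The STING agonist added to the LTβR agonist gave this class a median of 0.21, with 9 of 10 genes higher and 0 past the limit (backgrounds 2.22% higher and 1.71% lower). The LTβR agonist added to the STING agonist gave -0.16, with 10 of 10 lower and 0 past the limit (backgrounds 6.43% higher and 4.31% lower). By median, libraries with the STING agonist stood above their partners and libraries with the LTβR agonist below theirs, on both sides of the design. Split by Ly6c2, a monocyte gene, the LTβR agonist against untreated gave -0.19 in Ly6c2-positive and -0.26 in Ly6c2-negative cells, with 10 of 10 genes lower in each. Both agonists against untreated gave 0.04 in Ly6c2-positive cells (8 of 10 higher), which is close to the 0.03 over all genes tested. In Ly6c2-negative cells they gave -0.17 (10 of 10 lower), against 0.01 over all genes tested. Between the subsets, 0 genes passed the limit in every library (backgrounds 3.4% higher and 3.51% lower), although 8 of 10 were higher in Ly6c2-positive cells in each, the others being H2-K1 and B2m.

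Markers of the class moved with these values. The macrophage or monocyte marker list summed to 10069, 11453, 7002 and 8225 CPM in macrophage- or monocyte-like cells in library order. The median depth of these cells was 9007, 10764, 8510 and 8511 UMIs. Genes of an interferon list, which holds response genes but also Ifng and receptor genes such as Ifnar1, summed to 5916, 6727, 4863 and 6025 CPM. That sum was highest with the STING agonist and lowest with the LTβR agonist, as for the class I genes. The stress genes (Hspa1a, Hspa1b, Dnajb1, Fos, Jun and Egr1) summed to 2004, 2505, 1749 and 1729 CPM. The cells also lay in different clusters from library to library. Cluster 10 held 1204, 540, 507 and 311 cells, cluster 12 held 382, 199, 598 and 167, cluster 11 held 69, 36, 252 and 307, and cluster 21 held 64, 26, 203 and 212. With Ly6c2-positive and Ly6c2-negative cells weighted by their untreated shares, the medians against untreated were 0.16 (STING agonist), -0.21 (LTβR agonist) and -0.0018 (both). The part of the marker, interferon and stress genes, the depth and the clusters in the result was not tested.

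**Figure D3:**
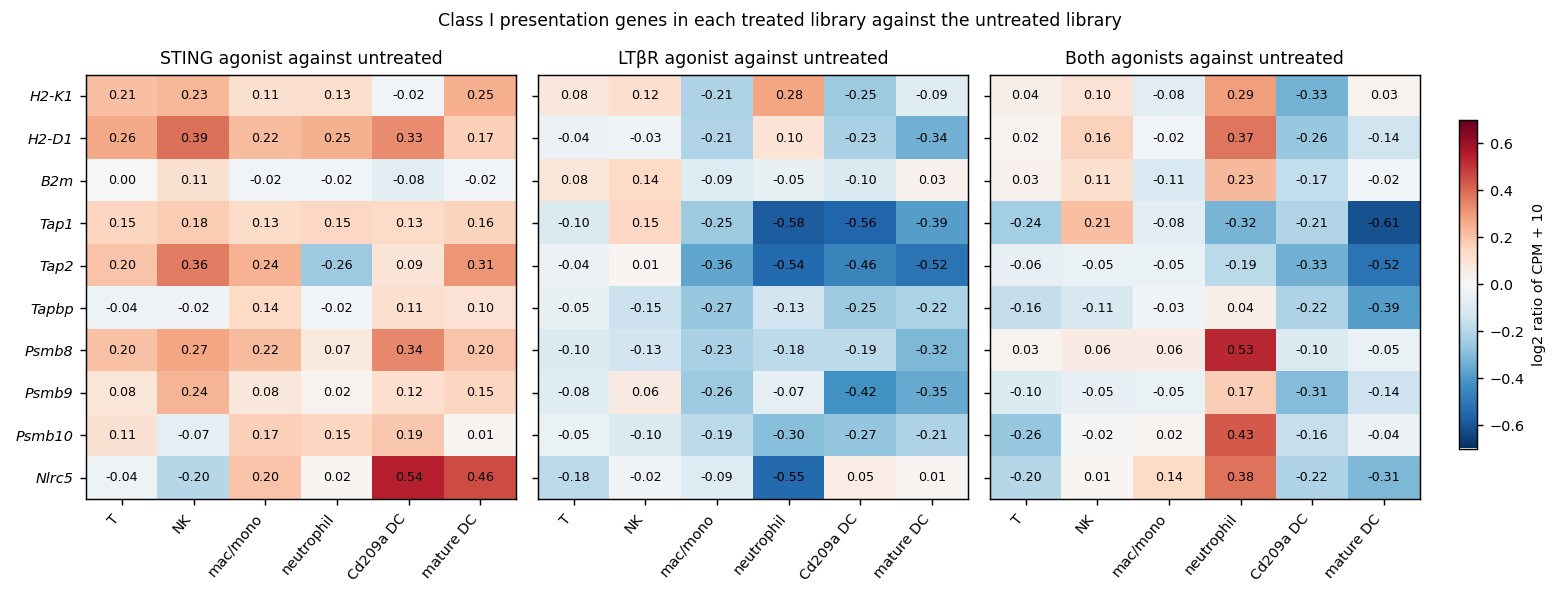
Log2 ratio of CPM + 10 (color and printed value) of each gene against untreated in 6 classes, in a panel each for the STING agonist, the LTβR agonist and both agonists. Macrophage- or monocyte-like cells run from -0.02 to 0.24 with the STING agonist and from -0.36 to -0.09 with the LTβR agonist.

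In T-like cells 8 of 10 genes were above untreated with the STING agonist, and Tapbp and Nlrc5 were both at -0.04. H2-D1 was at 0.26 (0.24 to 0.29), H2-K1 at 0.21 (0.19 to 0.24) and Psmb8 and Tap2 at 0.20, and the median was 0.13 against 0.02 over all genes. None of the 10 passed the limit in the library of the STING agonist (backgrounds 4.97% higher and 4.86% lower), of the LTβR agonist (4.28% and 3.47%) or of both (2.5% and 4.8%). The medians with the LTβR agonist (-0.05) and both agonists (-0.08) did not keep their sign, since they were 0.03 with the mean of single-cell CPM and 0.02 after thinning of cells to 1000 UMIs. The LTβR agonist added to the STING agonist gave -0.18, with Tap1 at -0.39 (-0.47 to -0.30) and Psmb10 at -0.37 (-0.48 to -0.26), the 2 genes past the limit (backgrounds 4.43% lower and 2.87% higher). The STING agonist added to the LTβR agonist gave -0.03 with 0 genes past it (2.01% higher and 4.77% lower). Psmb10 missed the limit in 4 of 11 alternatives (down to -0.21) and Tap1 in 1 (-0.318 with median-of-ratios scaling). The stress genes summed to 535, 903, 626 and 647 CPM in T-like cells, and their part was not tested.

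**Figure D4:**
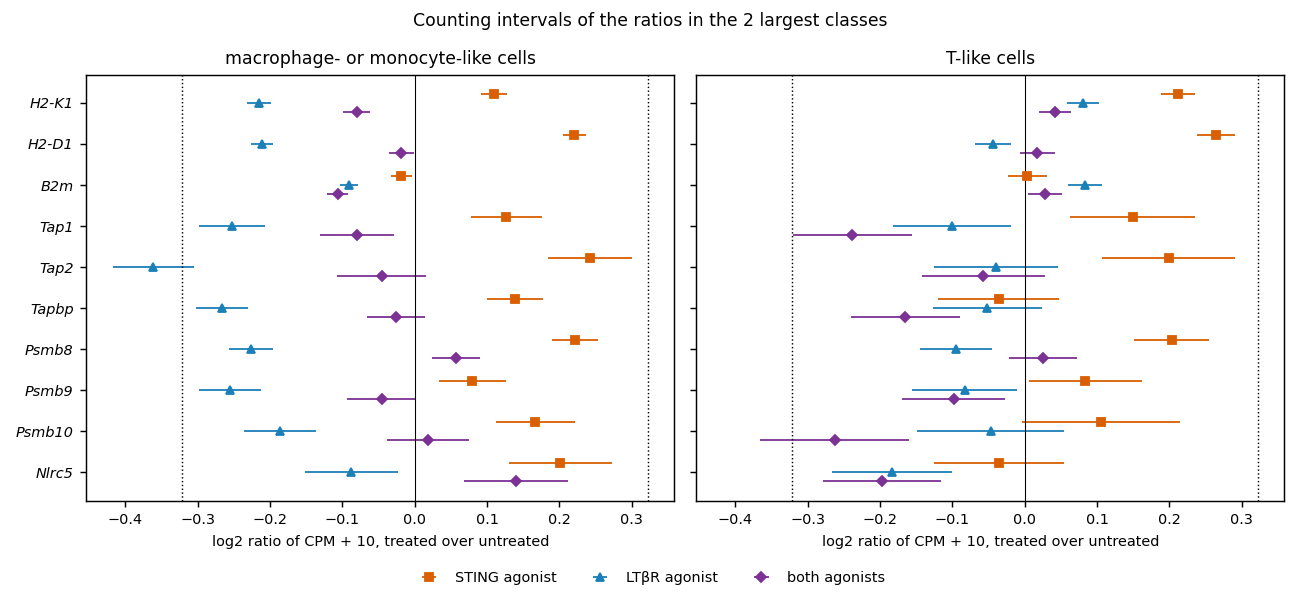
Log2 ratio of CPM + 10 against untreated (horizontal axis) for each gene in macrophage- or monocyte-like and T-like cells, with exact 95% counting intervals, a solid line at 0 and dotted lines at the limit of 0.32 in both directions. In macrophage- or monocyte-like cells 10 of 10 LTβR agonist values lie below 0, from -0.36 for Tap2 to -0.09 for Nlrc5.

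NK-like cells had a median of 0.21 with the STING agonist, where H2-D1 went from 2327 to 3048 CPM (0.39, 0.33 to 0.45) and Tap2 from 122 to 159 CPM (0.36, 0.12 to 0.61), both past the limit (backgrounds 12.2% higher and 10.1% lower). Nlrc5 went the other way, at -0.20, with an interval (-0.47 to 0.07) that included 0. H2-D1 passed in 10 of 10 alternatives, and Tap2 in 5, with -0.14 after thinning. The LTβR agonist gave a median of -0.01 (backgrounds 5.14% higher and 5.82% lower) and both agonists 0.03 (6.6% and 10.7%), with 0 genes past the limit. The first kept its sign in 4 of 10 alternatives and was 0.11 after thinning, and the second was 0.21 after thinning. Tap2 was also the 1 gene past it when the LTβR agonist was added to the STING agonist, at -0.41 (0.37 after thinning). That share, 1 of 10, is close to the background of 11.2% lower (6.01% higher). The reverse addition had 0 (6.04% and 8.24%). Stress genes summed to 499, 850, 577 and 571 CPM and genes of the interferon list to 3259, 3532, 3267 and 3417 CPM in NK-like cells, and their part was not tested.

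In Cd209a DC-like cells, 3 genes were past the limit above untreated with the STING agonist, H2-D1 by 0.33, Psmb8 by 0.34 and Nlrc5 by 0.54 (backgrounds 14.1% higher and 15% lower). Tap1, Tap2 and Psmb9 were past it below untreated with the LTβR agonist, at -0.56, -0.46 and -0.42 (11.2% lower and 10.8% higher). Both agonists gave H2-K1 at -0.33 and Tap2 at -0.33, where 2 of 10 is close to the background of 18.3% lower (10.7% higher). The median was -0.22 against -0.03 over all genes tested, and 10 of 10 genes were below untreated. The LTβR agonist added to the STING agonist had 8 of 10 genes past the limit lower (backgrounds 19.7% lower and 16.2% higher), led by Nlrc5 at -0.76 (-1.13 to -0.40) and H2-D1 at -0.59 (-0.68 to -0.50). B2m, at -0.10, was 1 of the 2 that did not pass, with H2-K1 at -0.31. The reverse addition had Tap1 alone past it, at 0.35, where 1 of 10 is close to the background of 7.12% higher (15.3% lower). The STING agonist library held 54 such cells. In 9 of 9 alternatives, Tap1 and Tap2 with the LTβR agonist and H2-D1, Tap2 and Psmb8 in the addition of the LTβR agonist stayed past the limit. The other calls in this class missed it in 1 to 6 alternatives, the stricter gate giving -0.01 for Nlrc5 with the STING agonist and thinning -0.16 for Tap1 in the reverse addition. In this class genes of the interferon list summed to 4511, 6324, 3598 and 3812 CPM and stress genes to 1205, 2335, 1265 and 1561 CPM. Both were highest with the STING agonist, and their part was not tested.

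Mature DC-like cells had Nlrc5 past the limit above untreated with the STING agonist, at 323 against 233 CPM (0.46, 0.20 to 0.71, backgrounds 15% higher and 13% lower). That count, 1 of 10, is below the background share. H2-D1, Tap1, Tap2 and Psmb9 were past it below untreated with the LTβR agonist, at -0.34, -0.39, -0.52 and -0.35 (19.1% lower and 14.1% higher). With both agonists Tap1, Tap2 and Tapbp were, at -0.61, -0.52 and -0.39, where 3 of 10 is close to the background of 24% lower (13.2% higher). The median of the 10 was -0.14 against -0.07 over all genes tested. Tap1 and Tap2 had the largest differences of the 10 with both agonists, while H2-K1 at 0.03 and B2m at -0.02 stayed near untreated. The LTβR agonist added to the STING agonist gave Tap2 -0.82, Tap1 -0.77, Nlrc5 -0.77 and Tapbp -0.49 (19.6% lower and 16% higher). The reverse addition gave Nlrc5 alone, at -0.33, where 1 of 10 is below the background of 21.3% lower (11.2% higher). In 10 of 10 alternatives Nlrc5 stayed past the limit with the STING agonist, Tap2 with the LTβR agonist, Tap1 and Tap2 with both agonists, and Tap1, Tap2 and Nlrc5 in the addition of the LTβR agonist. H2-D1 and Psmb9 with the LTβR agonist missed it in 5 of 10, Tapbp with both agonists in 4 of 10, and Nlrc5 in the reverse addition in 6 of 10. Genes of the interferon list summed to 5522, 4944, 3362 and 3533 CPM and stress genes to 860, 949, 390 and 690 CPM in this class, and their part was not tested.

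Neutrophil-like cells had the widest intervals. Tap1, Tap2 and Nlrc5 were past the limit below untreated with the LTβR agonist, at -0.58, -0.54 and -0.55 (backgrounds 18.7% lower and 18% higher), while H2-K1 was above at 0.28 (0.14 to 0.42). With both agonists, in 66 cells, H2-D1, Psmb8, Psmb10 and Nlrc5 were past it above, at 0.37, 0.53, 0.43 and 0.38 (background 19.7%), and Tap1 below at -0.32, where 1 of 10 is under the background of 24.9%. Of these, the intervals of H2-D1 and Psmb8 excluded 0. With the STING agonist 0 genes passed (backgrounds 15.3% higher and 22.3% lower). The STING agonist added to the LTβR agonist put 10 of 10 genes higher, with Tap2, Psmb8, Psmb10 and Nlrc5 past the limit at 0.35, 0.71, 0.73 and 0.93 (25.6% higher and 24.5% lower). The reverse addition had Psmb8 and Nlrc5 past it higher, at 0.46 and 0.37, and Tap1 lower, at -0.47. These counts, 2 and 1 of 10, are below the backgrounds of 25.9% higher and 24.7% lower. The calls below untreated with the LTβR agonist passed in 10 of 10 alternatives, as did Psmb8 with both agonists, while Psmb10 with both agonists was at -0.24 and Tap2 in the first addition at -0.23 after thinning. Tap1 with both agonists missed the limit in 5 of 10 (up to -0.11), and Psmb8 in the reverse addition was at 0.19 with the mean of single-cell CPM. B2m was at 0.23 with both agonists here, and between -0.17 and 0.14 of untreated in the other 5 classes.

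The 2 by 2 design allows the effect of both agonists to be set against the sum of the single effects. In macrophage- or monocyte-like cells the difference had a median of 0.04, with 9 of 10 genes above 0, and did not keep its sign, since it was -0.0054 with the mean of single-cell CPM. Ly6c2-positive cells of the class had 0.09, with 9 of 10 above 0, and Ly6c2-negative cells -0.04, with 7 of 10 below 0. In T-like cells it was -0.15 with 9 of 10 below 0, and -0.071 with median-of-ratios scaling. In Foxp3-negative Cd4 cells it was -0.27 with 10 of 10 below 0. Over all genes in T-like cells the medians against untreated were 0.03 (STING agonist), 0.01 (LTβR agonist) and -0.03 (both). In Foxp3-negative Cd4 cells they were 0.05, 0.01 and -0.04. The difference itself is not given over all genes, and the part of a shift of all genes was not tested. For Nlrc5 the difference was 0.91 in neutrophil-like cells and of opposite sign in dendritic cells, at -0.78 in mature DC-like and -0.81 in Cd209a DC-like cells. In the latter pair of classes it stood above untreated with the STING agonist and at -0.31 and -0.22 with both. NK-like cells had a median of -0.12, Cd209a DC-like cells -0.07, mature DC-like cells -0.09 and neutrophil-like cells 0.26. All 4 libraries enter each value, and none has a replicate.

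Macrophage- or monocyte-like cells had, of the 31 other genes of the pathway, 3 past the limit higher and 0 lower with the STING agonist (backgrounds 1.56% and 1.36%). They were the chaperones Hspa5 (0.54) and Pdia3 (0.37), and Irf1 (0.40), an interferon-induced activator of class I genes. The median was 0.09, and the lowest were the heavy chain H2-Q6 (-0.15) and, both at -0.06, Mr1, which presents vitamin metabolites, and H2-Q10. The LTβR agonist had a median of -0.13 (backgrounds 3.85% higher and 2.89% lower), with 1 gene higher, Hspa5 (0.39), followed by the constitutive subunits Psmb6 (0.17) and Psmb5 (0.15), and 8 were lower, among them H2-Q4 (-0.46) and H2-T22 (-0.41). The constitutive subunits had a median of 0.15 and the proteasome activator genes Psme1, Psme2 and Psme3 of -0.16, beside -0.22 for the 10 class I genes. With both agonists 2 were higher and 3 lower (backgrounds 5.52% and 3.73%), with Cd1d1, which presents lipids, at 0.53, Hspa5 at 0.50 and Irf1 at 0.30, and H2-Q7 at -0.47, H2-Q6 at -0.45 and H2-T22 at -0.33, around a median of -0.01.

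T-like cells had 2 of the 31 higher and 1 lower with the STING agonist, shares close to the backgrounds of 4.97% and 4.86%. Irf1 was at 0.43, H2-Q4 at 0.37 and H2-M3 at 0.28, and Ciita, the class II transactivator, at -0.46, H2-Q10 at -0.23 and Rfx5 at -0.14. None passed with the LTβR agonist, between Canx (0.18), H2-Q7 (0.16) and H2-Q6 (0.13) and Ciita (-0.22), H2-T22 (-0.22) and Tapbpl (-0.19). With both agonists 1 was lower (background 4.8%), Ciita at -0.43, beside Tapbpl and Nfyc at -0.19, and the highest were Hspa5 (0.17), Psmb5 (0.15) and Rfxap (0.08). In mature DC-like cells the LTβR agonist had 0 higher and 9 lower of 24 tested (background 19.1% lower), among them 5 of 5 transcription genes with a median of -0.55. The STING agonist had 1 higher and 1 lower there (backgrounds 15% and 13%), and both agonists 0 higher and 6 lower, where 6 of 24 is close to the background of 24% lower.

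The interferon list had 16 genes, mostly response genes, and also held Ifng and receptor genes such as Ifnar1. Of these 16, 5 were past the limit higher and 0 lower with the STING agonist in macrophage- or monocyte-like cells. They ran from Socs1 (0.80) to Ifng (-0.30), against backgrounds of 1.56% and 1.36%. The LTβR agonist had 0 higher and 7 lower, from Ifit1 (-0.01) to Gbp2 (-0.84) (3.85% and 2.89%). With both agonists 2 were higher and 1 lower, from Socs1 (0.75) to Irf7 (-0.35) (5.52% and 3.73%). In T-like cells the counts were 4 higher and 2 lower (Socs1 0.59, Cxcl9 -1.21), 2 and 3 (Cxcl10 0.56, Ifng -0.88), and 0 and 5 (Socs1 0.30, Ifng -0.67) for the 3 treatments, against backgrounds of 4.97% and 4.86%, 4.28% and 3.47%, and 2.5% and 4.8%. In mature DC-like cells, 12 of 15 were lower with the LTβR agonist, from Ifnar1 (0.10) to Cxcl9 (-2.26), and 12 of 15 with both agonists, from Socs1 (0.21) to Isg15 (-1.13), against backgrounds of 19.1% and 24% lower. The stress genes have the same backgrounds in each class. Of 6 stress genes, 4, 4 and 3 were higher and 0, 2 and 1 lower in macrophage- or monocyte-like cells for the 3 treatments, with Hspa1b at 2.14 and Fos at -0.62 under the LTβR agonist. In T-like cells 6, 3 and 2 were higher and 0, 1 and 0 lower, with Fos at 0.99 under the STING agonist and Hspa1b at 1.07 and Egr1 at -0.40 under the LTβR agonist.

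Over the 24 values of a gene (6 classes in 4 libraries), the 10 genes were more or less alike. The values share libraries and classes, so correlations are descriptions. Psmb8 and Psmb9 were most alike (Pearson r = 0.96), and Tap1, Tap2, Psmb8 and Psmb9, which are neighbors in the genome, had r of 0.83 to 0.96 among themselves. Psmb10 and Nlrc5, both on chromosome 8, had r = 0.00, and H2-K1 and Tap1 0.11, but 0.74 and 0.36 after the mean of each class was taken out. Against the mean of the other 9 genes, r ran from 0.94 for Psmb8 to 0.35 for H2-K1.

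**Figure D5:**
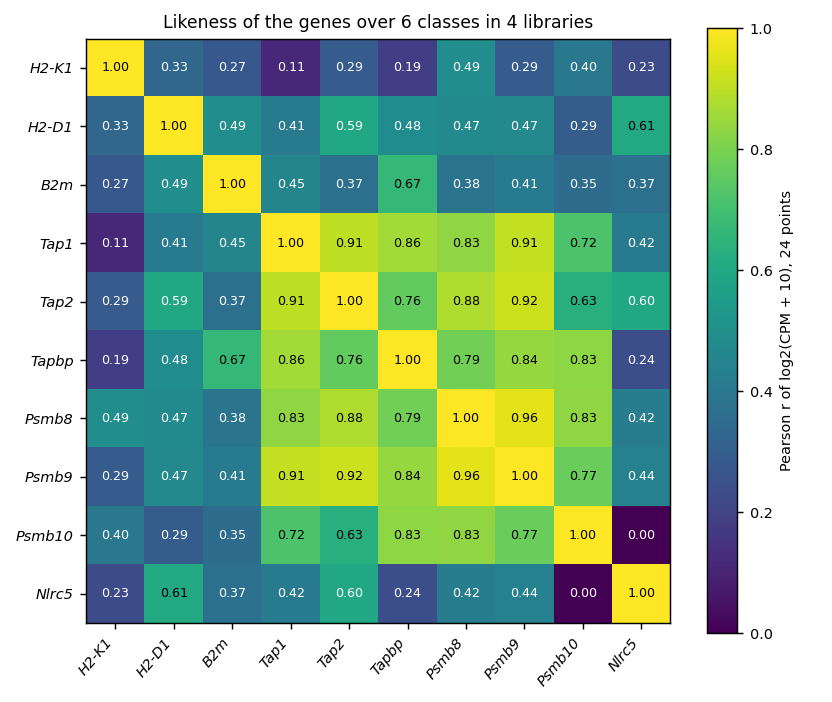
Pearson r between the log2(CPM + 10) levels of each pair of genes over 24 points (6 classes in 4 libraries), as color and printed value. Tap1, Tap2, Psmb8 and Psmb9 form the block of high values, 0.83 to 0.96.

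Of 8747 genes with enough UMIs, among those most like the mean of the 10 were Psme2 (r = 0.95), Cfl1 (0.94), Fbxo6 (0.92), Got1 (0.92), Psme1 (0.92), Necap2 (0.90), Ptms (0.90), Gstt3 (0.90) and Pafah1b3 (0.90). Psme1 and Psme2 encode the interferon-induced proteasome activator, and Cfl1 an actin-severing protein. After the mean of each class was taken out, which leaves only differences between libraries, among the most alike were Phyh (0.90), Tmbim6 (0.89), Ifi35 (0.89), Rab5c (0.88), Igtp (0.87), Irf7 (0.87), Pnpla2 (0.87), Bcl3 (0.86) and Tnfrsf1a (0.86). Ifi35, Igtp and Irf7 are interferon-response genes. In the same reading Psmb9 had the highest r with the mean of the other class I genes (0.91) and B2m the lowest (0.38).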

How the data were processed

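Libraries of sorted CD45+ leukocytes were made with a 10x Genomics 5′ kit, and the authors deposited 1 matrix of UMI counts per gene and cell. The submitters' processing notes name Cell Ranger 7.1.0 and the build mm10. Strand use and the experiment behind each library are not given in the sources used here. Cells with 300 to 5000 genes and up to 6% mitochondrial UMIs were kept. The deposited counts were summed per class and library and divided by the total (CPM), with exact Poisson intervals. Ratios used log2(CPM + 10) and exact conditional binomial 95% intervals of counting error. No test between groups was made, since each is 1 library, and 50 UMIs and 50 cells were the minimum for a ratio. Marker lists were set before the gate on them, which was set after the data were seen. Predicted doublets (Scrublet score above 0.2, 2.03% to 3.35% of cells) were kept. Steps were tested on simulated data. The genes, gene lists and class pairs were chosen with earlier results of these data known. Named were all 10 genes, the 3 highest and 3 lowest pathway genes, the highest and lowest interferon and stress genes, and the 10 genes most alike, of which some are not reported here. Of the pathway and interferon lists, 1 symbol each was not found. Alternatives changed the scaling, pseudocount, UMI minimum, gate, filter, doublets, thinning and clustering. Python 3.11.15, scipy 1.17.1 and scanpy 1.11.5 were used.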

Additional observations from a re-analysis of the deposited data

Results flagged for a closer look

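In 3 cases a class I gene was past the limit of 0.32 above its partner library in 1 class and past it below in another. Where several classes met this for a gene and comparison, the 2 furthest apart are given. The differences between classes were not tested, since each group is 1 library. Nlrc5, when the STING agonist was added to the LTβR agonist, was at 0.93 (0.41 to 1.42) in neutrophil-like and at -0.33 (-0.64 to -0.02) in mature DC-like cells, 1.26 apart on the log2 scale. With the LTβR agonist added to the STING agonist it was at 0.37 (-0.14 to 0.85) and -0.77 (-1.10 to -0.44) in the same classes, 1.14 apart. Psmb8 in that comparison was at 0.46 (0.10 to 0.80) in neutrophil-like and at -0.44 (-0.57 to -0.30) in Cd209a DC-like cells, 0.90 apart. Each of these values rests on the library with both agonists, which held 66 neutrophil-like cells. Their median depth there was 1968 UMIs against 9575 in mature DC-like cells, and the part of depth was not tested.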

How the results depend on the processing

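The medians of the 10 genes in macrophage- or monocyte-like and T-like cells and the class order gave 138 values under the alternatives. Of these, 132 stayed within a set limit and 6 moved. For a median the limit was the typical half-width of a single gene's counting interval, widened for the 2 by 2 values. That is not the counting error of a median. Counts had to stay within 1.5 times. In T-like cells, shifts under median-of-ratios scaling from -0.15 to -0.071 (2 by 2) and from -0.18 to -0.11 (LTβR agonist added to STING agonist) stayed within this limit. In macrophage- or monocyte-like cells the median with both agonists against untreated, -0.04, was -0.088 under median-of-ratios scaling and -0.094 with the mean of single-cell CPM. With that mean, the STING agonist added to the LTβR agonist gave 0.16 in place of 0.21, and the LTβR agonist added to the STING agonist -0.22 in place of -0.16. T-like cells had 0.028 for the LTβR agonist against untreated with that mean, in place of -0.05, and 0.022 for both agonists against untreated after thinning, in place of -0.08. The cause was not tested. The STING agonist against untreated kept its direction in 11 of 11 alternatives, at 0.14 to 0.17 in macrophage- or monocyte-like and 0.09 to 0.19 in T-like cells, as did the LTβR agonist in macrophage- or monocyte-like cells at -0.24 to -0.19.

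Of 3325 further values, 339 moved and 6 values past the limit, of 4 genes, changed direction. The 4 smaller classes were added to the alternatives after the data were seen. After thinning, Tap2 in NK-like cells was at -0.14 with the STING agonist against untreated and at 0.37 with the LTβR agonist added to the STING agonist. In neutrophil-like cells, thinning gave -0.24 for Psmb10 with both agonists against untreated and -0.23 for Tap2 with the STING agonist added to the LTβR agonist. Tap1 in Cd209a DC-like cells was at -0.16 in the latter comparison after thinning, and Nlrc5 there at -0.0076 with the STING agonist against untreated under the stricter gate. Of 51 single-gene values past the limit, 20 stayed past it in every alternative run. Clustering in place of the gate named no Cd209a DC-like cluster and left 5 classes to order, and 91.1% of gated cells lay in a cluster of the same name. Clusters were named after the gated class of most of their cells, so this share is not an independent check. No paired analysis was possible because each group is 1 library.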
